A study of Mus musculus with 6 samples.

Results

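Mitosis and spindle checkpoint genes were followed in CD31-positive cells of the mouse embryo that carried or lacked the receptor c-kit. The set comprised 42 listed genes, of which 41 had a probe set that the platform annotation assigns to 1 gene only, among 19937 genes measured that way. Ccnb1 had none and was not analysed here. Where a gene had several such probe sets, the one with the highest mean over the 6 arrays was taken.

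The cells came from CD1 embryos at E11.5 (E, embryonic day), whose AGM region, holding the aorta, gonads and mesonephros, was dissected and digested with collagenase. No genotype or treatment beyond the strain is given, and both populations passed the same gate, positive for CD31 and negative for CD45 and Ter119. Within it c-kit-negative cells (3 arrays) were parted from c-kit-positive cells (3 arrays). The replicates are labelled biological with no word on the pooling of embryos, so p-values rest on the spread among 3 arrays a group. Kit itself stood at 8.27, 8.21 and 8.19 (log2) on the c-kit-negative arrays, in replicate order, and at 9.59, 9.54 and 9.53 on the c-kit-positive arrays, a check of the labels and not a finding.

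A dividing cell enters mitosis when Cdk1 is bound by a mitotic cyclin, condenses its chromosomes with condensin and topoisomerase II, and builds a spindle with the help of Aurora kinases, Polo-like kinases and kinesins. Kinetochores assembled on the centromeres attach the chromosomes to the spindle. The spindle checkpoint holds back Cdc20 and the anaphase-promoting complex until all are attached, after which separase cuts cohesin and the sister chromatids part. In the AGM region at this age haematopoietic cells emerge from the aortic wall, and primordial germ cells, which also carry c-kit and CD31, settle in the genital ridges.

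Mitotic genes lay slightly higher in c-kit-positive cells. The checkpoint kinase genes Bub1 and Ttk and the kinetochore gene Cenpf rose, by 1.64-fold, 1.68-fold and 1.58-fold, and no member fell. Of the 41 genes 39 averaged higher in the c-kit-positive samples, with a median difference of 0.28 on the log2 scale (1.21-fold). The differences were small: 7 members exceeded 0.5 on the log2 scale, 31 lay between 0.1 and 0.5, and 3 lay below 0.1.

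The 3 calls of 41, or 7.32% (adjusted p under 0.05, limma with Benjamini-Hochberg adjustment over all genes) stand against a background of 2.71% of all genes called higher. Calls in the other direction were made for 4.70% of all genes and for 0 members. At an unadjusted p under 0.05 in limma 0 members were lower, against 1932 of all 19937 genes. At that unadjusted threshold 13 members were higher, against 11.4% of all genes. Of all genes 61.1% averaged higher in the c-kit-positive samples, and the median difference over all genes was 0.07. All 3 c-kit-positive values lay above all 3 c-kit-negative values for 19 members (46.3%), against 16.2% of all genes, and the reverse held for none of the members, against 10.6%. Of the members 40 belonged to the brighter 50% of genes, where 4.71% were called higher, 56.7% had the higher mean and 18.8% had all 3 values above.

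**Figure D1:**
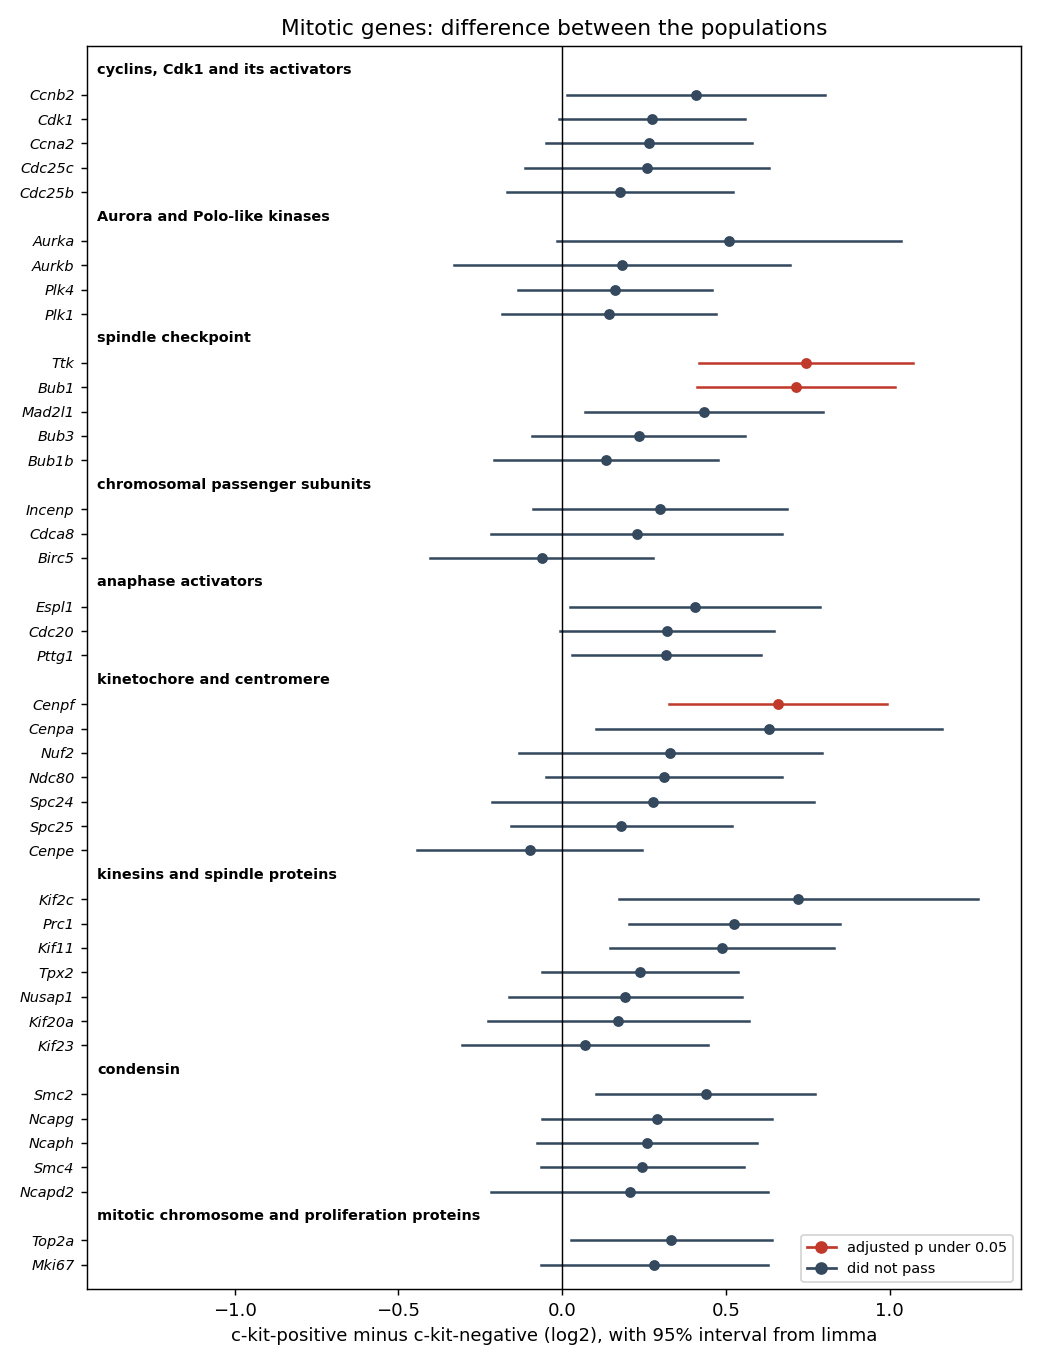
Difference of each measured mitotic gene between the populations on the log2 scale (x axis, positive means higher in c-kit-positive cells) with its 95% interval from limma, grouped by role. The 3 genes past the adjusted threshold are red, and 39 of the 41 points lie right of 0.

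Bub1 encodes a kinase that recruits checkpoint proteins to kinetochores. The c-kit-negative arrays gave 9.04, 8.86 and 8.88 for replicates 1, 2 and 3, and the c-kit-positive arrays 9.61, 9.59 and 9.73. The groups did not overlap, and the lowest c-kit-positive value exceeded the highest c-kit-negative one. The difference was 0.71 ± 0.13 (SE, n = 3 each, adjusted p = 0.0143, limma). With c-kit-negative replicate 2 or 3 left out it was 0.68 and 0.69 and did not pass (adjusted p = 0.0516 and 0.0515, limma).

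Ttk, also called Mps1, is the kinase at the head of the checkpoint. It stood at 7.62, 7.64 and 7.94 on the c-kit-negative arrays and at 8.54, 8.49 and 8.41 on the c-kit-positive arrays, in replicate order. The c-kit-positive values lay close together, whereas c-kit-negative replicate 3 was above the other two. The difference was 0.75 ± 0.14 (SE, n = 3 each, adjusted p = 0.0167, limma). It remained between 0.69 and 0.85 with 1 array left out, and missed the threshold when c-kit-negative replicate 1 or 2 or c-kit-positive replicate 1 or 2 was left out (adjusted p = 0.0655, 0.0608, 0.0567 and 0.0526, limma).

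Cenpf encodes a large coiled-coil protein of the outer kinetochore. Values of 8.14, 8.45 and 8.23 on the c-kit-negative arrays faced 8.80, 8.96 and 9.04 on the c-kit-positive arrays, in replicate order, and did not overlap. The difference was 0.66 ± 0.15 (SE, n = 3 each, adjusted p = 0.0299, limma). Leaving out c-kit-negative replicate 1 or 3 or c-kit-positive replicate 2 or 3 ended the call (adjusted p = 0.105, 0.0895, 0.0853 and 0.09, limma). Without moderation of the variance, of the 3 genes only Bub1 passed (adjusted p = 0.0494), while Ttk and Cenpf were at 0.0777 and 0.102.

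**Figure D2:**
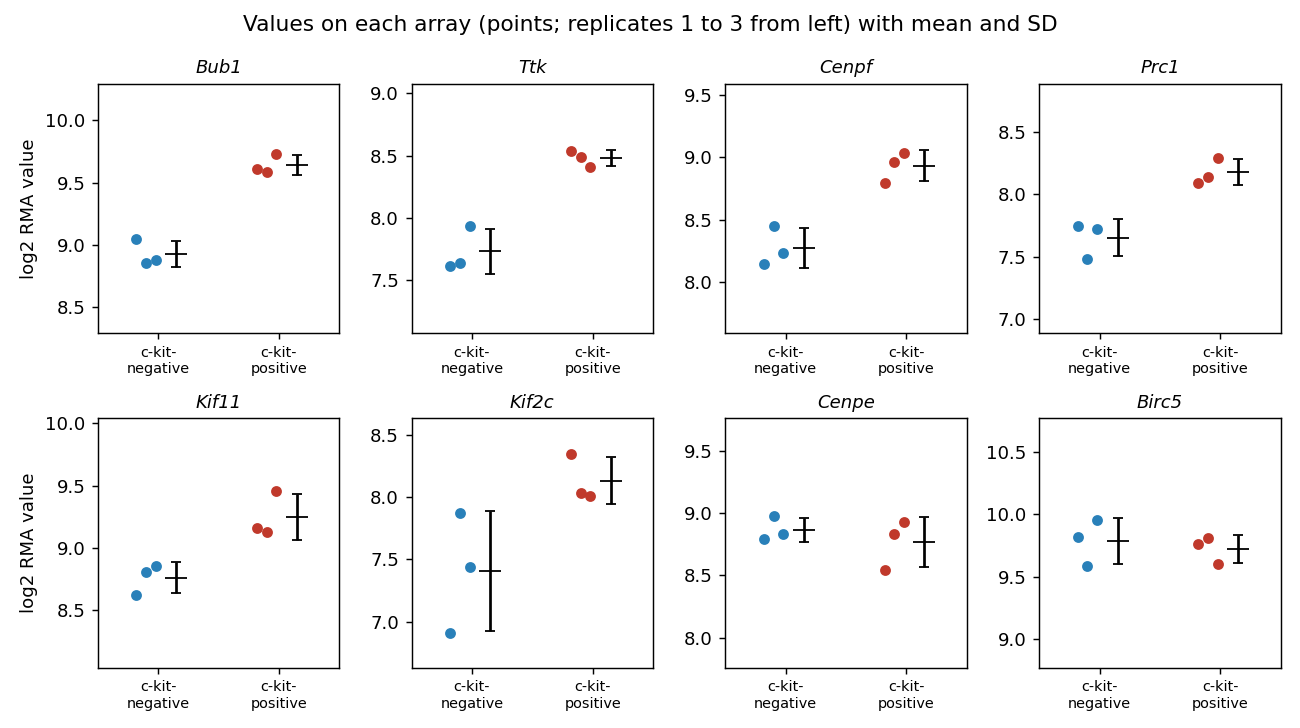
Log2 values of 8 mitotic genes on each array (y axis, every panel spanning 2 log2 units), with blue points for c-kit-negative and red for c-kit-positive cells, and black bars for mean and SD (n = 3). Bub1, Ttk and Cenpf separate with little spread, Kif2c spreads widely in c-kit-negative cells, and Cenpe and Birc5 overlap.

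The promoters of these genes are shown because mitotic genes are known to share promoter motifs: the cell cycle genes homology region (CHR), read by complexes that hold mitotic genes silent outside late cell cycle phases, and CCAAT boxes, bound by NF-Y. Each line gives 150 bases before to 30 after the annotated start, 5′ to 3′ on the gene's strand, from RefSeq (GRCm38.p6). Capitals mark CHR matches (TTTGAA or TTCGAA) and CCAAT matches, searched on both strands, so that they may also read TTCAAA or ATTGG. Ccnb2 is added as the measured B-type cyclin, and Cenpe and Birc5 as the members with a lower mean in c-kit-positive cells.
Bub1, chr2:127831830-127832009, strand -: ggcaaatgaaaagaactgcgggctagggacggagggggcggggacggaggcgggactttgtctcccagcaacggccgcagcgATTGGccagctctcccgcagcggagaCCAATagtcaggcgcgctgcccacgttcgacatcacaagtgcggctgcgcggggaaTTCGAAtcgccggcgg
Ttk, chr9:83834539-83834718, strand +: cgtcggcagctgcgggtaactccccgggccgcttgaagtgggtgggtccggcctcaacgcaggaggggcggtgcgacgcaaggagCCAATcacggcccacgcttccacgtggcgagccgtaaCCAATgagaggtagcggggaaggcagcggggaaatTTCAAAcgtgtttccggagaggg
Cenpf, chr1:189688057-189688236, strand -: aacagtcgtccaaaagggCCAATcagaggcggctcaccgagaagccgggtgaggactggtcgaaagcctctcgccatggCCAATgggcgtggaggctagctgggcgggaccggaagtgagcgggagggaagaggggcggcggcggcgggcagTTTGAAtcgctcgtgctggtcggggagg
Ccnb2, chr9:70421525-70421704, strand -: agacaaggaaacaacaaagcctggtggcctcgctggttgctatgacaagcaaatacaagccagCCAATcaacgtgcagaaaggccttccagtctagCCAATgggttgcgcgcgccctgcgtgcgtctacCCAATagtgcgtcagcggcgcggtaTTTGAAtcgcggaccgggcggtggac
Cenpe, chr3:135212413-135212592, strand +: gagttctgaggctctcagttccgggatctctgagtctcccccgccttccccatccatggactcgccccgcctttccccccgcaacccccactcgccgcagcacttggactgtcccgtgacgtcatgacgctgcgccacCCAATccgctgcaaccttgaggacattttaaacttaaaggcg
Birc5, chr11:117849087-117849266, strand +: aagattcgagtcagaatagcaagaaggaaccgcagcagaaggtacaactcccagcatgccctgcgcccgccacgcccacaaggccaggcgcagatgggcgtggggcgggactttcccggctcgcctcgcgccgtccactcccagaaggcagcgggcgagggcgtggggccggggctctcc

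The 3 genes that rose each held CHR letters just after the start and a pair of CCAAT matches before it. Kif23, which differed by only 0.07, also held TTTGAA at base 3. In Bub1 TTCGAA began at base 15 and in Cenpf TTTGAA at base 3, counted from the start as base 1, while Ttk held TTCAAA at base 8. Ccnb2 held TTTGAA at base 5 and CCAAT matches 87, 54 and 21 bases before the start. The Cenpe window held a CCAAT match 12 bases before the start and no CHR letters, and the Birc5 window held neither, which says only that these letters are not in the window. The CHR and CCAAT matches in the printed stretches did not overlap.

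Among the 33 measured members with an entry in the promoter table (250 bases before to 50 after the start), 25 held a CHR match, or 75.8%. The share was 19.2% of all 32851 promoters in the table and 19.0% of the 15613 measured genes with an entry. Within 30 bases of the start, 18 members (54.5%) held one, against 3.24% of measured genes. CCAAT was found in 24 members (72.7%), against 37.4% of all promoters and 41.7% of measured genes. Median GC content was 59.0% for members, near the 57.3% of measured genes and above the 52.7% of all promoters. Among the other mitotic genes described further on, 44 of 87 held CHR letters (50.6%), 28 held them within 30 bases of the start (32.2%) and 51 held CCAAT (58.6%). Among genes of DNA replication 6 of 31 held CHR letters (19.4%) and 21 held CCAAT (67.7%). These shares were set side by side and not tested. The 25 members with a CHR match had differences from 0.07 to 0.75 (median 0.32), and the 8 without one from -0.10 to 0.43 (median 0.23). These ranges overlapped and were not tested against each other. These matches are descriptions of letters and not binding sites.

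**Figure D3:**
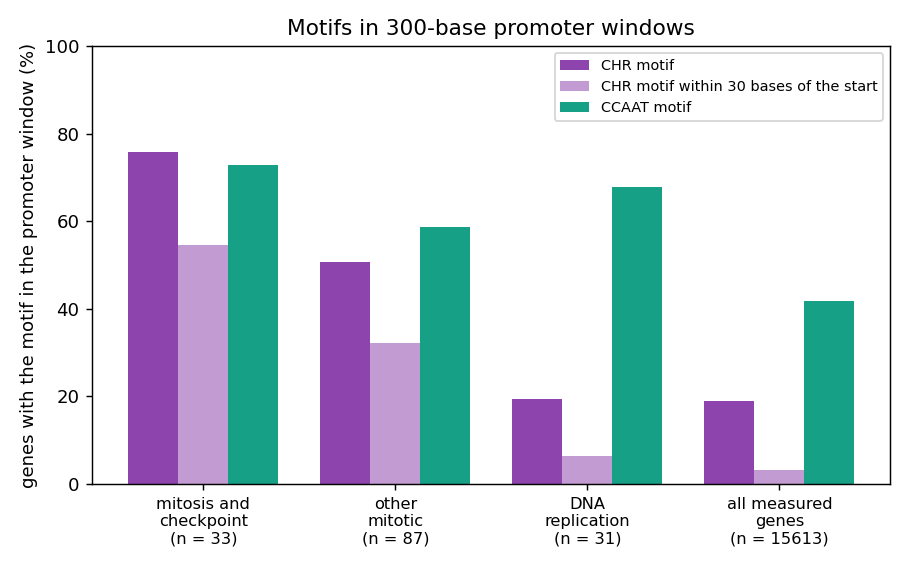
Share of genes (y axis, percent) whose 300-base promoter window holds a CHR match, a CHR match within 30 bases of the start, or a CCAAT match, in 4 sets of genes with the number of genes that have an entry. CHR matches stand in 75.8% of the mitosis and checkpoint genes, 50.6% of the other mitotic genes and 19.0% of measured genes, whereas CCAAT is also frequent in DNA replication genes.

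The remaining checkpoint genes had smaller differences than Ttk and Bub1. Mad2l1, the MAD2 protein that inhibits Cdc20, was at 9.55, 9.24 and 9.73 in c-kit-negative and 9.87, 9.95 and 10.004 in c-kit-positive replicates 1, 2 and 3. Its groups did not overlap, yet the difference of 0.43 ± 0.16 (SE) did not pass (adjusted p = 0.159, limma). Bub3, which docks BUB1 and BUBR1 on kinetochores, differed by 0.23 (95% interval -0.09 to 0.56). Bub1b, which encodes BUBR1 and is the relative of Bub1, differed by 0.13 (-0.21 to 0.48), with c-kit-positive values of 8.69, 8.72 and 9.06 that overlapped 8.74, 8.60 and 8.73. Without c-kit-positive replicate 3 it differed by 0.015. Whether Bub1 and Bub1b differed in their change was not tested. Over the 5 checkpoint genes the median difference was 0.43, higher than in any other class of members. Of them 2 rose (40%, against 2.71% of all genes and 4.71% of the brighter genes).

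The 8 genes counted here as protein kinases, which include Bub1, Bub1b and Ttk, all averaged higher in the c-kit-positive samples, against 61.1% of all genes. Their median difference was 0.23, against 0.28 for the 33 other members. Of the kinases 2 rose (25%) and of the others 1 (3.03%), against 2.71% of all genes and 4.71% of the brighter genes. The share of the other members thus lay below that of the brighter genes. Among the Aurora and Polo-like kinases none passed. Aurka, the Aurora A kinase of the spindle poles, was at 8.68, 8.23 and 8.65 in c-kit-negative and 8.55, 9.32 and 9.22 in c-kit-positive cells, in replicate order. c-kit-positive replicate 1 thus lay within the c-kit-negative range while the other two lay above it, and the difference was 0.51 (-0.02 to 1.03, adjusted p = 0.251, limma). Aurkb, the Aurora B kinase of the passenger complex, differed by 0.18 (-0.33 to 0.69), and by -0.013 without c-kit-negative replicate 1. Plk1, which acts from mitotic entry to cytokinesis, differed by 0.14 (-0.18 to 0.47), the smallest difference of this class. Plk4, which starts centriole duplication, differed by 0.16 and its groups did not overlap.

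Cdk1 and its partners all had small positive differences, where 61.1% of all genes averaged higher, and none passed. Cdk1, the mitotic cyclin-dependent kinase, was at 8.72, 8.66 and 8.78 in c-kit-negative and at 9.02, 8.95 and 8.995 in c-kit-positive replicates 1, 2 and 3. The groups did not overlap and the difference was 0.27 ± 0.12 (SE, adjusted p = 0.252, limma). Ccnb2, which encodes cyclin B2, was at 9.69, 9.94 and 9.63 against 10.21, 9.88 and 10.39, so that c-kit-positive replicate 2 fell below the highest c-kit-negative value. Its difference of 0.41 (0.02 to 0.80, adjusted p = 0.218, limma) was the largest of the class. Ccna2, cyclin A2, differed by 0.27 without overlap, and the phosphatases Cdc25c and Cdc25b, which release Cdk1 from inhibition, by 0.26 and 0.18 with overlap.

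The chromosomal passenger complex guides Aurora B to centromeres and then to the midzone. None of its 3 other subunits passed or separated the populations. Birc5, or survivin, was at 9.82, 9.59 and 9.95 in c-kit-negative and 9.77, 9.81 and 9.60 in c-kit-positive replicates 1, 2 and 3. The ranges overlapped over most of their span, the difference was -0.06 (-0.40 to 0.28), and its sign turned without c-kit-negative replicate 3 or c-kit-positive replicate 3. Incenp, the scaffold, differed by 0.30 (-0.09 to 0.69) and Cdca8, or borealin, by 0.23 (-0.22 to 0.67).

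The 3 genes of anaphase control each had c-kit-positive values above all c-kit-negative ones, as did 16.2% of all genes, and none passed. Espl1, or separase, was at 6.49, 6.61 and 6.29 in c-kit-negative and 7.14, 6.68 and 6.79 in c-kit-positive replicates 1, 2 and 3, a difference of 0.41 (0.02 to 0.79, adjusted p = 0.207, limma). Pttg1, or securin, which holds separase inactive, was at 9.94, 9.81 and 9.95 against 10.26, 10.22 and 10.17. Its difference of 0.32 (0.03 to 0.61) had an adjusted p of 0.192 (limma). Cdc20, the activator of the anaphase-promoting complex, also differed by 0.32 (-0.01 to 0.65).

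At the kinetochore, Cenpf stood beside genes that did not pass. Cenpa, the histone H3 variant of centromeres, was at 8.56, 8.30 and 8.74 in c-kit-negative and 9.67, 8.86 and 8.97 in c-kit-positive replicates 1, 2 and 3. The groups did not overlap, c-kit-positive replicate 1 stood above the other two, and the difference of 0.63 (0.10 to 1.16) was 0.38 at its lowest with 1 array left out. The 4 subunits of the NDC80 complex, which grips microtubules, differed by 0.33 (Nuf2), 0.31 (Ndc80), 0.28 (Spc24) and 0.18 (Spc25), all with overlap. Spc24 was at 7.83, 7.88 and 8.62 on the c-kit-negative arrays, in replicate order, and its c-kit-positive values of 8.38, 8.42 and 8.34 lay inside that range. Cenpe, a kinesin that carries chromosomes to the spindle equator, was at 8.79, 8.98 and 8.83 against 8.54, 8.83 and 8.93. Its groups overlapped, and the difference of -0.10 (-0.44 to 0.25) turned to 0.014 without c-kit-positive replicate 1.

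All 7 genes of kinesins and spindle proteins averaged higher in the c-kit-positive samples, against 61.1% of all genes, and none passed. The groups did not overlap for 4 of them (57.1%, against 16.2% of all genes). Prc1, which bundles the microtubules of the midzone, was at 7.75, 7.48 and 7.72 in c-kit-negative and 8.09, 8.14 and 8.29 in c-kit-positive replicates 1, 2 and 3. It was the member just outside the threshold, with a difference of 0.53 ± 0.14 (SE, adjusted p = 0.0633, limma), whereas Cenpf lay just inside. Kif11, the motor that pushes spindle poles apart, was at 8.62, 8.81 and 8.86 against 9.16, 9.13 and 9.46, a difference of 0.49 ± 0.15 (SE, adjusted p = 0.0983, limma). Both genes separated the populations on every array.

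Kif2c, or MCAK, which depolymerises microtubules at faulty attachments, had a difference close to that of Ttk but a wider spread. It was at 6.91, 7.87 and 7.44 in c-kit-negative and 8.35, 8.03 and 8.01 in c-kit-positive replicates 1, 2 and 3. The groups did not overlap, and c-kit-negative values ranged more widely than those of any other member (SD 0.48). The difference of 0.72 ± 0.24 (SE, adjusted p = 0.123, limma) became 0.47 without c-kit-negative replicate 1, and 0.95 without replicate 2, where it passed (adjusted p = 0.0479, limma). Tpx2, which activates Aurora A and seeds spindle microtubules, differed by 0.24 without overlap, and the bundling protein gene Nusap1 by 0.19. The cytokinesis motors Kif20a and Kif23 differed by 0.17 and 0.07, and Kif20a differed by 0.040 without c-kit-negative replicate 2 and 0.30 without replicate 3. Kif23 had a negative difference without c-kit-negative replicate 1 or c-kit-positive replicate 3.

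Condensin, which compacts mitotic chromosomes, had 5 measured genes with differences from 0.21 to 0.44. The core ATPase gene Smc2 was at 9.60, 9.65 and 9.64 in c-kit-negative and 9.999, 9.91 and 10.30 in c-kit-positive replicates 1, 2 and 3. The c-kit-negative values were nearly equal (SD 0.03), and the difference of 0.44 ± 0.15 (SE) did not pass (adjusted p = 0.126, limma). Its partner Smc4 differed by 0.25 and the condensin I subunit Ncapg by 0.29, both without overlap. Ncaph and Ncapd2, further subunits of condensin I, differed by 0.26 and 0.21 with overlap. Ncapd2 differed by 0.02 without c-kit-positive replicate 3, whose value of 7.69 stood above 7.14 and 7.09.

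The common proliferation markers had differences near the median over all members (0.28), and neither passed. Mki67, whose protein Ki-67 coats mitotic chromosomes, was at 9.18, 9.18 and 8.94 in c-kit-negative and 9.18, 9.44 and 9.53 in c-kit-positive replicates 1, 2 and 3. The lowest c-kit-positive value coincided with the highest c-kit-negative values to within rounding, and the difference was 0.28 (-0.07 to 0.63, adjusted p = 0.341, limma). Top2a, topoisomerase II alpha, was at 10.06, 9.97 and 9.96 against 10.19, 10.33 and 10.46, without overlap, a difference of 0.33 (0.03 to 0.64, adjusted p = 0.197, limma). A further Top2a probe set, dim at a mean of 3.05, gave -0.07, and the mean of both gave 0.13. It was the only member with more than 1 probe set.

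The intervals bound the size of what may have been missed. For 36 of the 41 members the 95% interval ended below a 2-fold rise, and those that reached it were Bub1, Ttk, Cenpa, Kif2c and Aurka. For 28 members the interval spanned 0. With 1 array left out the difference moved by over 1.5 times for 21 members, of which 0 had passed. A p above the threshold therefore does not show that these genes were equal in the populations.

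**Figure D4:**
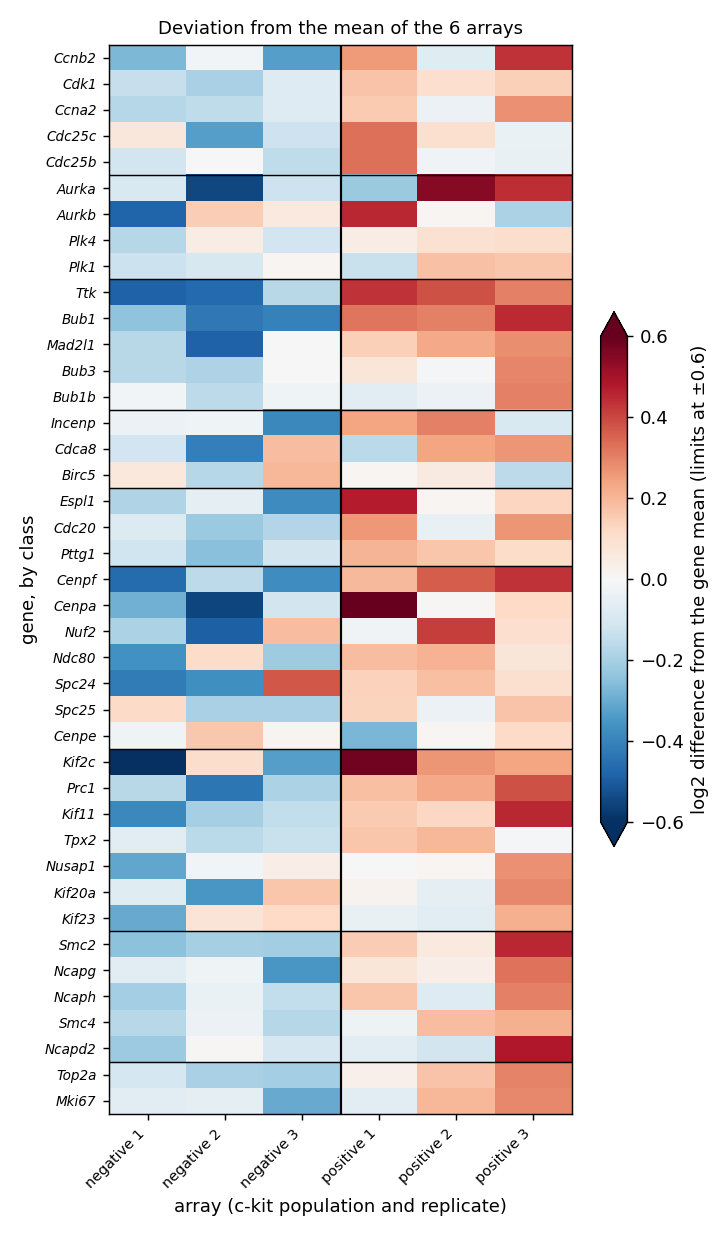
Deviation of each mitotic gene on each array from its own mean over the 6 arrays (colour, log2, limits at 0.6), genes by role and arrays by population and replicate. Most rows turn from blue on the c-kit-negative arrays to red on the c-kit-positive arrays, and c-kit-positive replicate 3 is the highest of its population for 24 of the 41 genes.

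Across arrays the shift was shared but not uniform. The median deviation of the members from their own means was -0.17, -0.16 and -0.13 on the c-kit-negative arrays, in replicate order, and 0.15, 0.09 and 0.26 on the c-kit-positive arrays. Over all genes the same medians lay between -0.05 and 0.04. Within c-kit-positive cells replicate 3 had the highest value for 24 members, against 6825 of 19937 genes overall. Within c-kit-negative cells replicates 2 and 3 had the highest value for 16 members each and replicate 1 for 9. The spread between replicates was smaller for members than for all genes, with a median SD of 0.16 against 0.21. Of the 41 members 40 belonged to the brighter 50% of genes, and the spread of those genes was not compared.

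Other genes of mitosis were counted in 9 further lists. Of the 102 measured 14 rose (13.7%, against 2.71% of all genes) and none fell in limma, against 4.70% of all genes. At an unadjusted p under 0.05 in limma 0 of them were lower, against 1932 of all 19937 genes. The median difference was 0.30, and 77 had the higher mean (75.5%, against 61.1% of all genes). Leaving out c-kit-negative replicate 3 or c-kit-positive replicate 3 gave 4 such calls, and leaving out any other single array 6 to 8.

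The inner kinetochore, the layer built on Cenpa chromatin, had the highest median of these lists (0.56). Of its 15 genes 3 rose (20%, against 2.71% of all genes). Cenpu rose by 2.29-fold (adjusted p = 0.0119, limma), from 5.49, 5.71 and 5.76 to 6.73, 6.52 and 7.31, and Cenph and Cenpk by 1.74-fold each. Of 14 outer kinetochore genes 3 rose (21.4%). They were Ska1, which couples kinetochores to shrinking microtubules (1.91-fold), the MIS12 complex gene Pmf1 (1.56-fold) and Kntc1, a platform for checkpoint proteins (1.53-fold). Kif18a, a kinesin that damps chromosome movements, rose by 2.27-fold, with 6.91, 7.31 and 7.06 in c-kit-negative and 8.20, 8.18 and 8.47 in c-kit-positive replicates 1, 2 and 3 (adjusted p = 0.00322, limma). Dlgap5, a spindle assembly protein, was the other of 17 in that list to rise (1.54-fold). The share of 11.8% called there stands against 2.71% of all genes.

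Single genes rose elsewhere, where 2.71% of all genes were called higher. A single call in so short a list says little about that list. Among 16 genes of the anaphase-promoting complex and its regulators 1 rose (6.25%), Fbxo5, or Emi1, an inhibitor of that complex (1.72-fold). That list's median was 0.06, and 9 of its 16 genes had the higher mean, a share of 56.2% that lies below the 61.1% of all genes. The 12 cohesin genes gave 1 call (8.33%), Sgo2a, a shugoshin that protects centromeric cohesin and is known from meiosis (1.82-fold). Cks2, a small Cdk1-binding protein (1.65-fold), and the kinase gene Pbk (1.51-fold) rose among 12 genes of mitotic entry, and Ect2, which activates RhoA for cytokinesis, rose by 1.68-fold among 4. Ncapg2 of condensin II rose by 1.55-fold, 1 of 3 genes. None of 9 regulators of mitotic genes passed in limma. At an unadjusted p under 0.05 in limma 3 were higher and 0 lower, against 2264 and 1932 of all 19937 genes.

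DNA replication genes, which act before mitosis, showed a median difference of 0.40. Of 39 measured 8 rose (20.5%, against 2.71% of all genes) and 36 had the higher mean (92.3%, against 61.1%). Gins1 of the replicative helicase rose by 2.10-fold, Prim1, the primase, by 1.88-fold, Orc1 of the origin recognition complex by 1.96-fold and Pole, a replicative polymerase, by 1.66-fold. The calls numbered 2 to 5 with any single array left out. Whether replication and mitotic genes differed in their shift was not tested.

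**Figure D5:**
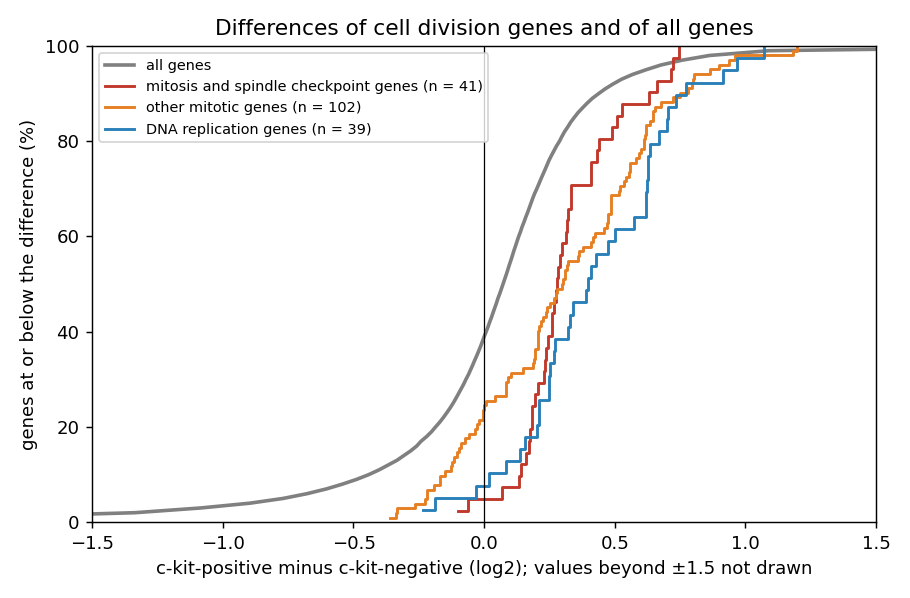
Cumulative share of genes (y axis, percent) at or below each difference between the populations (x axis, log2, c-kit-positive minus c-kit-negative) for all genes and for 3 sets of cell division genes. The curves of the 41 mitosis and checkpoint genes, 102 other mitotic genes and 39 replication genes lie right of the curve of all genes, with medians of 0.28, 0.30 and 0.40 against 0.07.

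Markers of other cells moved with the populations on the same arrays. Of 12 primordial germ cell markers 11 rose, and their mean level ran from 6.95 to 7.12 on c-kit-negative and from 8.31 to 8.51 on c-kit-positive arrays (log2). All 12 endothelial markers fell, from between 8.66 and 8.77 to between 5.65 and 6.02. Of all genes 2.71% rose and 4.70% fell. Mesenchymal markers fell for 5 of 7 (6.65 to 7.07 against 5.36 to 5.48). Macrophage markers fell for 3 of 10 (6.43 to 7.36 against 5.89 to 6.02). All 10 were highest, among c-kit-negative arrays, in replicate 1, with a mean of 7.36 against 6.52 and 6.43 in replicates 2 and 3. Platelet markers fell for 2 of 5 (6.69 to 7.86 against 5.53 to 6.23). Erythroid markers divided (6.95 to 7.73 against 6.03 to 6.27): the 3 embryonic globins of 7 genes fell, whereas the erythroid factors Gata1 and Klf1 and the receptor Epor had differences of 0.79, 0.73 and 0.27 that did not pass (adjusted p = 0.0667, 0.139 and 0.356, limma). Pecam1, which encodes CD31, was 1.86-fold lower in c-kit-positive cells, and Ptprc, which encodes CD45, was at 9.40, 8.66 and 8.21 against 8.37, 8.60 and 8.59. The part of these cell types in the mitotic gene differences was not tested. In bulk samples a larger share of dividing cells and more mitotic RNA per cell in the c-kit-positive population cannot be told apart.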

How the data were processed

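Total RNA of 6 sorted samples, 3 per population, was measured on 1 array each. Per the labels' protocols, 5 ng of RNA was amplified with a NuGEN whole-transcript kit and labelled with biotin. Amplification from little RNA and array background can compress differences. The authors deposited log2 values, which the submitters' processing notes attribute to RMA (background correction, equalised distributions, probe sets summarised). Neither its settings nor its version is given in the sources used here. Values ran from 1.22 to 13.7 with array medians of 5.42 to 5.52, from which the log2 scale was inferred, and precision is limited by there being 6 arrays. No detection calls come with the values, so no gene is called absent.

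The platform annotation gave 1 symbol for 21640 of 34760 probe sets, several for 1321, and has no entry for 11799, left unnamed here. The first kind covered 19937 genes. Differences were tested with limma 3.58.1 (R 4.3.3) through two-sided moderated tests from lmFit and eBayes without a filter or block, adjusted over the 19937 genes, and the script was tested on simulated data. An exact permutation test of 3 against 3 cannot go below 0.1 and was not run. Promoters were matched by symbol to a RefSeq table (GRCm38.p6). Figures were drawn with matplotlib 3.10.9.

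The members and lists were chosen with earlier results of these data known. Members were named where they passed, where the populations did not overlap or where the difference was the largest or smallest of the class, and the rest by value. In other lists up to 4 genes past the threshold were named. Alternatives were centring, quantile normalization, filters on dim genes, mean of probe sets, another prior, array weights, a replicate block, no moderation, a stricter threshold and leaving out each array.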

Additional observations from a re-analysis of the deposited data

How the results depend on the processing

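The same 3 members (Bub1, Ttk and Cenpf) passed under median centring, quantile normalization, both filters on dim genes (30% and 50%), the mean of probe sets, the trend and robust prior, array weights and the replicate block. No label says whether same-numbered arrays share a sort. Deviations of same-numbered arrays correlated at 0.00071, 0.024 and 0.059, and not every array correlated best with its own number. With 3 arrays a group these correlations cannot show whether the numbers pair the arrays. With the replicate block, 9 other mitotic genes and 5 replication genes were called higher. Without moderation the numbers called higher were 1 member, 0 other mitotic genes, 0 replication genes and 66 of all genes, with 216 of all genes lower. At an adjusted p under 0.01 they were 0, 1, 1 and 131, with 499 lower. With 1 array left out, 1 to 2 members, 4 to 8 other mitotic genes, 2 to 5 replication genes and 276 to 369 of all genes were called higher. The median difference over members stayed between 0.25 and 0.30 in every alternative that could move it, and 37 to 40 members had the higher mean. Signs turned only with 1 array left out, where Aurkb ran from -0.013 to 0.32, Birc5 from -0.16 to 0.022, Cenpe from -0.18 to 0.014 and Kif23 from -0.064 to 0.15. Beside the 3 genes, Kif2c passed without c-kit-negative replicate 2, and the other 37 members passed in no setting.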
